A study of Mus musculus with 6 samples.

Results

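The genes described here are 10 that coat, build or empty the cell's fat stores: the droplet coats Plin2, Plin3 and Plin4, the droplet assembly factor Fitm2, the lipase inhibitors G0s2 and Hilpda, the lipase activator Abhd5, and the lipases Pnpla2, Lipe and Mgll. They were chosen by symbol from the 22272 symbols of the deposited count table, and all 10 had enough reads to be tested among 12166 genes. RNA was sequenced from undifferentiated C2C12 cells, a mouse line of muscle precursors, at day 0 of differentiation. The control group was 3 samples that carried green fluorescent protein (GFP), listed with the genotype WT. The other group was 3 samples with overexpression of ChREBP-beta, the short, highly active form of a transcription factor that responds to glucose, the product of Mlxipl. The sources used here do not give how either protein was introduced, and both groups derive from 1 established cell line. Whether replicates were separate cultures is not stated in the labels. The p-values thus reflect the spread between the samples alone, part or all of which may be technical.

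A lipid droplet is a core of triglyceride and sterol ester under a single layer of phospholipid, on which perilipin proteins sit and control access of lipases. Breakdown runs in steps. Adipose triglyceride lipase, encoded by Pnpla2, removes a fatty acid from triglyceride, hormone-sensitive lipase, encoded by Lipe, acts mainly on the diglyceride that results, and monoacylglycerol lipase, encoded by Mgll, releases the last fatty acid. Adipose triglyceride lipase needs the coactivator Abhd5 (also called CGI-58), which perilipins can hold away from it, and it is inhibited by the small proteins G0s2 and Hilpda. Muscle cells store fat in small droplets coated mainly by perilipins other than the adipocyte form Plin1.

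Mlxipl had 0.576, 0.719 and 0.501 CPM with GFP (replicates 1 to 3, the order used throughout) and 222, 215 and 220 CPM with ChREBP-beta, which fits all 6 labels. CPM is a count as a share of the library total, scaled by TMM, the trimmed mean of M values. Total counts ran from 17600238 to 19163834 per library. The myoblast markers Des and Vcam1 were read in every library, and the summed level of the 9 myoblast markers was 576 to 613 CPM with GFP and 244 to 259 CPM with ChREBP-beta. Markers of tissues that the culture should lack were read in most libraries. The 6 lung epithelium genes, led by Scgb1a1 and Sftpc, summed to 0.837 CPM in GFP replicate 1 and to between 72.7 and 137 CPM in the other 5 libraries. The 9 hepatocyte genes, led by Alb and Mup20, summed to 0.209 and 0.0553 CPM in GFP replicates 1 and 2 and to between 18.2 and 32.9 CPM in the other 4. The 7 leukocyte markers, led by Lyz2 and Cd14, summed to 13.9 CPM in GFP replicate 1 and to between 24.3 and 27.0 CPM elsewhere, and the 6 erythrocyte markers, led by Hbb-bs and Hba-a1, to between 3.35 and 11 CPM over all libraries. None of the 8 adipocyte markers exceeded 1 CPM in any library: Cfd and Plin1, the most abundant, reached 0.707 and 0.319 CPM, the list summed to between 0.105 and 1.41 CPM, and Lep, Adrb3 and Cidea had no read. Fibroblast and fibro-adipogenic markers, led by Cd34 and Ly6a, summed to between 876 and 907 CPM across both groups. Within that sum Cd34 was lower with ChREBP-beta, at 468 to 482 CPM against 553 to 582 CPM with GFP. Ly6a was higher, at 348 to 367 CPM against 234 to 243 CPM (edgeR adjusted p = 2.08e-08 for Cd34 and 1.68e-14 for Ly6a). Differences in CPM do not tell fewer cells of a type from less RNA per cell.

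Of the 10 genes, 6 were higher with ChREBP-beta (G0s2, Plin2, Lipe, Hilpda, Fitm2 and Abhd5), 3 were lower (Plin4, Mgll and Plin3) and Pnpla2 was not called (edgeR quasi-likelihood test, two-sided, Benjamini-Hochberg adjusted p under 0.05). Among all 12166 tested genes 29.5% were higher and 29.3% lower, together 58.7%, so a call by itself is common in this comparison. G0s2, Plin2, Plin4 and Mgll changed at least 2-fold, as did 11.5% of tested genes. The groups did not overlap in CPM for 9 of the 10, against 63.2% of tested genes. The median size of the log2 fold change, without its sign, was 0.66 over the 10 genes and 0.23 over all tested genes. The signed medians were 0.30 and -0.004. Without GFP replicate 1, the library with the lowest lung marker sum, the same 6 were higher and the same 3 lower. That fit keeps the libraries with 72.7 to 137 CPM of those markers. Its largest shifts were in Lipe, from a log2 fold change of 0.70 to 0.85, and Hilpda, from 0.45 to 0.54.

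**Figure D1:**
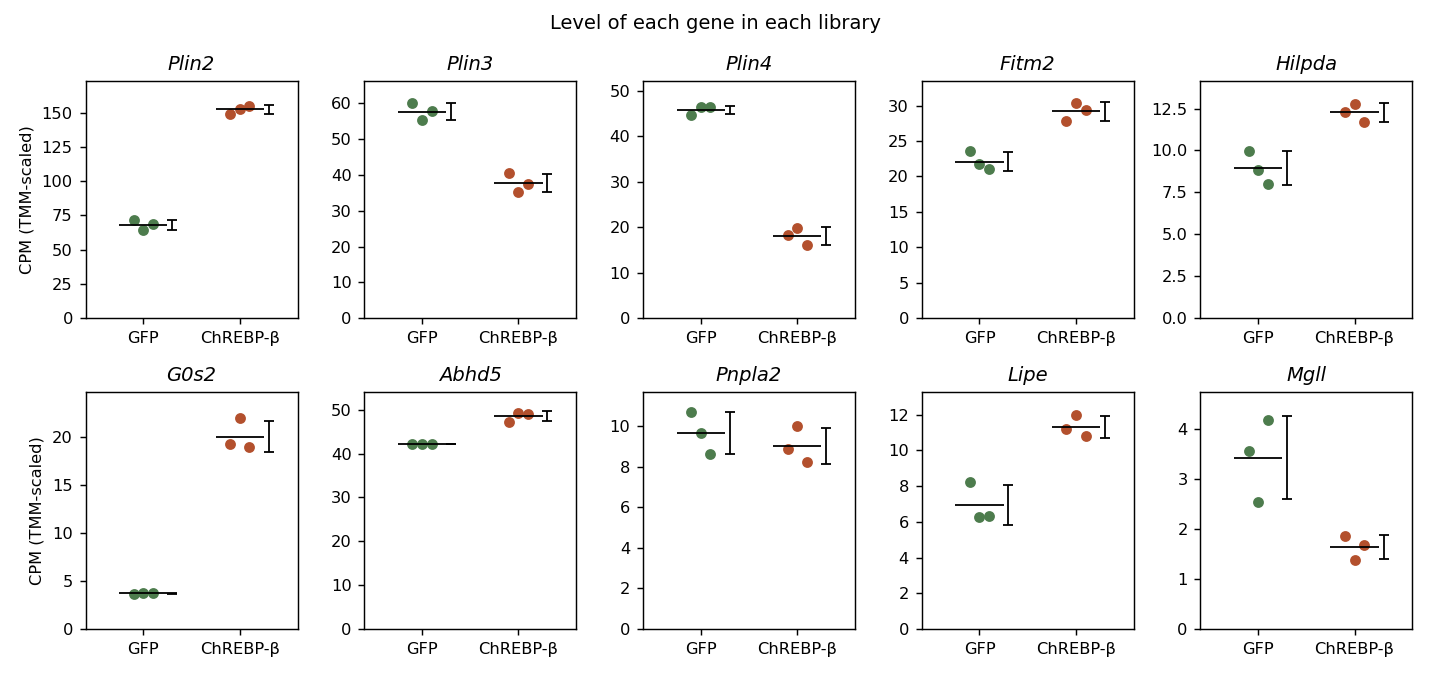
CPM of each gene in each library, with the vertical axes starting at 0 and scaled per gene. Points are libraries, horizontal lines group means and bars 1 SD (n = 3 per group); the groups are apart for every gene drawn except Pnpla2, whose points run from 8.63 to 10.7 CPM with GFP and from 8.21 to 9.99 CPM with ChREBP-beta.

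Sequence upstream of the genes is shown because ChREBP binds DNA with its partner Mlx at carbohydrate response elements, pairs of E-box-like repeats. RefSeq promoter windows (GRCm38.p6; 250 bases before to 50 after a gene's start) matched all 10 genes, in 13 windows since Hilpda, Lipe and Mgll have 2 starts each. The E-box CACGTG, which reads the same on both strands, occurred in 1 window each of Plin2, Lipe and Mgll, 3 of 13 windows. It occurred in 7.15% of all 32851 windows and in 9.75% of the 12320 windows of tested genes. Of the genes with it, Plin2 and Lipe rose and Mgll fell. The hypoxia core ACGTG, searched on both strands and contained in every CACGTG, occurred outside an E-box in 1 window of Hilpda and in the second window of Mgll, and was found in 19.6% of all windows and in 25.2% of the windows of tested genes. Neither the carbohydrate response element consensus, present in 0.119% of all windows, nor the direct repeat of AGGTCA with 1 base between the copies, a site of PPAR receptors, present in 0.0396%, was found in the 13 windows on either strand. The stretches below run 5′ to 3′ from 250 bases before the start to 10 after it, with E-box or hypoxia core matches in capitals: Plin2 (chr4:86670050-86670309, minus strand), whose E-box begins at position -4 from the start; Lipe (chr7:25395978-25396237, minus strand), at -155; Mgll (chr6:88724162-88724421, plus strand), at -44; Hilpda (chr6:29272376-29272635, plus strand), whose ACGTG begins at -43; and G0s2 (chr1:193273179-193273438, minus strand), the gene with the largest change, which has neither.
Plin2: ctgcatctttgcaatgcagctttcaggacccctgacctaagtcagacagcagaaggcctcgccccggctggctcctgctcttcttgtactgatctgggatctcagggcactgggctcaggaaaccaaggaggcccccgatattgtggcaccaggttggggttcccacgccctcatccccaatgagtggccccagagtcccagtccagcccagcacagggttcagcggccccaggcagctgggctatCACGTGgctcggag
Lipe: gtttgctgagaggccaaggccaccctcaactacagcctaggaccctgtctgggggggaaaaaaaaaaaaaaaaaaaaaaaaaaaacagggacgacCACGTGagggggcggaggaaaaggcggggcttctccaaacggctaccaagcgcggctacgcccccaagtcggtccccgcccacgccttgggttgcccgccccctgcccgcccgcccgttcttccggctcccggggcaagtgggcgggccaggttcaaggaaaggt
Mgll: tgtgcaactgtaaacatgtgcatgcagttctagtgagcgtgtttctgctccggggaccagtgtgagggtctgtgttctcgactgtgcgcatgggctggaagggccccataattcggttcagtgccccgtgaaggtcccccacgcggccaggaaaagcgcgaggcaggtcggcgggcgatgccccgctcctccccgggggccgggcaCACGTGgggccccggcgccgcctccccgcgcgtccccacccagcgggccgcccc
Hilpda: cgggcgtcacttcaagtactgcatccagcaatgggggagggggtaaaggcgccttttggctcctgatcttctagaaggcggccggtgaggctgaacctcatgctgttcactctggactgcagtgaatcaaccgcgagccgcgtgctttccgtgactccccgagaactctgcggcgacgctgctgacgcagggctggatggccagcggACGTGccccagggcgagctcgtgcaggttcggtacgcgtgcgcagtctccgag
G0s2: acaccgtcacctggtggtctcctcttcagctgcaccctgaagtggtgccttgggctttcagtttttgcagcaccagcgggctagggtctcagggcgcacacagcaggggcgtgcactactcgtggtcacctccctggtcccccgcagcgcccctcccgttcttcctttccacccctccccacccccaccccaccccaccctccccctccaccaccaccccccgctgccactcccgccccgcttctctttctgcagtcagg

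The 3 perilipin genes moved apart. Plin2 (ENSMUSG00000028494.12; chromosome 4, 86648386 to 86670060, minus strand, GRCm38), the coat found on droplets of most cells and degraded when it has no droplet to bind, stood at 71.5, 64.5 and 68.7 CPM with GFP and at 149, 153 and 155 CPM with ChREBP-beta. Every ChREBP-beta library was thus above every GFP library, with a spread of a few CPM within each group. The log2 fold change was 1.16 (SE 0.040), a 2.23-fold rise (edgeR adjusted p = 7.15e-18), larger than that of 90.1% of tested genes in either direction; the E-box shown above lies at its start. Plin3 (ENSMUSG00000024197.10; chromosome 17, 56277476 to 56292873, minus strand), a coat that is also soluble in the cytosol and moves onto new droplets, was read at 60.0, 55.3 and 57.7 CPM with GFP and at 40.4, 35.2 and 37.5 CPM with ChREBP-beta. It fell 1.53-fold (log2 fold change -0.61, SE 0.058; edgeR adjusted p = 2.29e-09), and the lowest GFP library was above the highest ChREBP-beta library. Plin4 (ENSMUSG00000002831.13; chromosome 17, 56100591 to 56109803, minus strand), a coat with a long repeated helix that is abundant in fat and muscle, was read at 44.7, 46.3 and 46.3 CPM with GFP and at 18.2, 19.8 and 16.0 CPM with ChREBP-beta. It fell 2.53-fold (log2 fold change -1.34, SE 0.071; edgeR adjusted p = 3.75e-14). The GFP libraries of Plin4 lay within 2 CPM of each other and far above the others. Its exons share 17 bases with Hdgfl2 on the opposite strand.

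Per exonic kilobase (CPM divided by the merged exon length in GENCODE M21), the summed level of the 3 coats was 43.9, 41.0 and 42.8 with GFP and 56.2, 56.4 and 56.9 with ChREBP-beta. The summed coat level was thus higher with ChREBP-beta, although only Plin2 of the 3 rose. On that scale Plin2 made up 45.6% ± 0.763 (SD, n = 3) of perilipin counts in the control libraries and 76.8% ± 1.25 in the ChREBP-beta libraries. Plin3 went from 35.8% ± 0.273 to 17.6% ± 1.24 (SD, n = 3), and Plin4 from 18.6% ± 0.984 to 5.52% ± 0.614 (SD, n = 3). With the length of the longest coding transcript in place of merged exons, a choice added after the data were seen, the Plin2 share was 60.3% with GFP and 85.7% with ChREBP-beta. The ratio of Plin2 to Plin3 per exonic kilobase was 1.28, 1.26 and 1.29 with GFP and 3.97, 4.68 and 4.46 with ChREBP-beta, a 3.42-fold difference between group means on the log scale. The ratio of Plin4 to Plin3 was lower with ChREBP-beta, at 0.315 ± 0.0474 against 0.521 ± 0.0309 (SD, n = 3), so Plin4 fell further than Plin3. Each ratio separated the groups, with p = 0.1 (exact permutation test, two-sided; adjusted over 7 ratios 0.1), the smallest p that 3 against 3 samples allow. The adipocyte coat Plin1 had 2 counts in all with GFP and 14 with ChREBP-beta, and Plin5, a coat that ties droplets to mitochondria, 2 and 5. Both were too low to be tested.

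**Figure D2:**
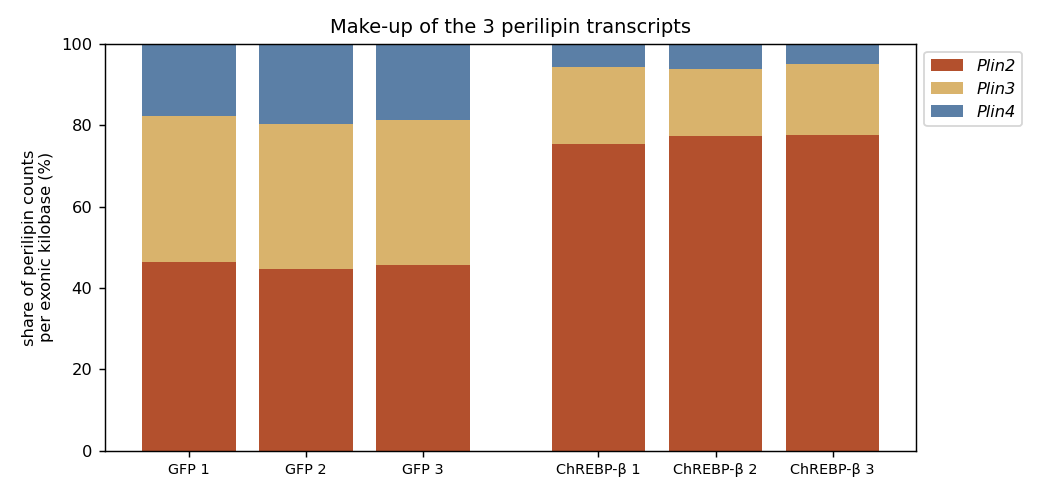
Share of Plin2, Plin3 and Plin4 in their summed counts per exonic kilobase, one bar per library. Plin2 takes 44.8% to 46.3% in the GFP libraries and 75.4% to 77.7% in the ChREBP-beta libraries.

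Fitm2 (ENSMUSG00000048486.6; chromosome 2, 163466379 to 163472629, minus strand), a protein of the endoplasmic reticulum needed for droplets to bud, rose by a smaller step. It was read at 23.6, 21.7 and 21.0 CPM with GFP and at 27.8, 30.4 and 29.4 CPM with ChREBP-beta. All ChREBP-beta libraries were higher, by 1.32-fold in the fit (log2 fold change 0.40, SE 0.072; edgeR adjusted p = 4.03e-05). Its muscle paralog Fitm1 had no read in any library. An antisense gene shares 5.72% of the exonic bases of Fitm2, and the strand setting of the counting is not known from the sources used here.

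Both inhibitors of adipose triglyceride lipase rose. G0s2 (ENSMUSG00000009633.3; chromosome 1, 193272161 to 193273217, minus strand), which binds the lipase domain directly, was read at 3.66, 3.71 and 3.79 CPM with GFP and at 19.3, 22.0 and 19.0 CPM with ChREBP-beta. The GFP values differ by less than 0.2 CPM, and every ChREBP-beta value is several times higher. The log2 fold change was 2.43 (SE 0.116), or 5.40-fold (95% interval 4.57 to 6.37; edgeR adjusted p = 4.63e-15), and 98.6% of tested genes had a lower log2 fold change. In GENCODE M21 the G0s2 gene lies inside an intron of Lamb3, a laminin chain gene on the opposite strand, 120 bases from the nearest Lamb3 exon. Lamb3 rose 40.6-fold, from 2.41, 2.88 and 1.78 CPM to 98.7, 92.8 and 96.7 CPM (edgeR adjusted p = 2.38e-24). No exonic base is shared, and in the ChREBP-beta libraries G0s2 had 23.1 CPM per exonic kilobase and Lamb3 14.5. Whether reads of one gene were counted for the other was not tested.

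Hilpda (ENSMUSG00000043421.8; chromosome 6, 29272488 to 29275446, plus strand), a small droplet protein induced by low oxygen and by fatty acids, was read at 9.99, 8.85 and 8.02 CPM with GFP and at 12.3, 12.8 and 11.7 CPM with ChREBP-beta. The groups were apart, although the gap between the highest GFP and the lowest ChREBP-beta library was under 2 CPM. It rose 1.37-fold (95% interval 1.17 to 1.61; log2 fold change 0.45, SE 0.112; edgeR adjusted p = 0.00124).

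The coactivator Abhd5 (ENSMUSG00000032540.16; chromosome 9, 122351608 to 122381524, plus strand) was read at 42.2, 42.2 and 42.1 CPM with GFP and at 47.3, 49.3 and 49.1 CPM with ChREBP-beta. The GFP libraries lay closer together than their counting error of at most 3.64% gives on average, and all ChREBP-beta libraries were above them. The rise was 1.15-fold (95% interval 1.07 to 1.24; edgeR adjusted p = 0.00197), the smallest called change of the 10 genes, and 44.8% of tested genes changed by no more than that. An antisense gene covers 16.0% of the exonic bases of Abhd5.

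The lipases for the 3 steps did not move together. Pnpla2 (ENSMUSG00000025509.15; chromosome 7, 141455198 to 141460743, plus strand) was read at 10.7, 9.68 and 8.63 CPM with GFP and at 8.87, 9.99 and 8.21 CPM with ChREBP-beta, and the groups overlapped. Its log2 fold change was -0.10 (95% interval -0.35 to 0.15; edgeR adjusted p = 0.508), which leaves room for a change of up to 1.28-fold down or 1.11-fold up. Lipe (ENSMUSG00000003123.15; chromosome 7, 25379527 to 25398710, minus strand) was read at 8.21, 6.25 and 6.35 CPM with GFP and at 11.2, 12 and 10.8 CPM with ChREBP-beta. GFP replicate 1 was the highest of its group, and all ChREBP-beta libraries were above it. Lipe rose 1.63-fold (95% interval 1.36 to 1.95; edgeR adjusted p = 3.96e-05). An antisense gene covers 15.6% of its exonic bases. Mgll (ENSMUSG00000033174.17; chromosome 6, 88724412 to 88828360, plus strand) was the least abundant of the 10, with 68, 46 and 75 counts in the GFP and 34, 26 and 29 counts in the ChREBP-beta libraries, or 3.56, 2.54 and 4.18 against 1.85, 1.38 and 1.68 CPM. The groups did not overlap, but a count of 26 carries a relative counting error of 19.6%. Mgll fell 2.09-fold (95% interval 1.43 to 3.06; edgeR adjusted p = 0.00131). Of its exonic bases, 3.29% are shared with an antisense gene. The E-box shown above for Lipe and Mgll lies in the window of 1 of the 2 RefSeq starts of each gene. The Lipe gene of GENCODE M21 reaches further upstream, to 25398710, and sequence at that end was not searched. Which start was used in these cells was not tested.

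**Figure D3:**
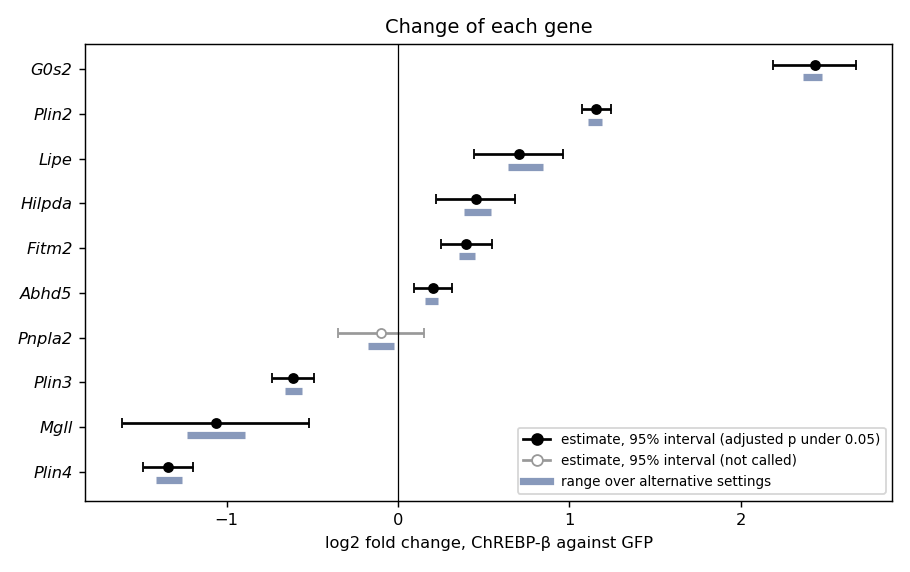
Log2 fold change of each gene, ChREBP-beta against GFP, with its 95% interval (points and whiskers; open where not called) and, below each, the range of the estimate over the alternative settings. G0s2 at 2.43 and Plin4 at -1.34 are the extremes, and the interval of Pnpla2 alone crosses 0.

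Because Pnpla2 itself did not pass the test, the other genes of lipolysis were set against it within each library, which does not depend on library scaling. G0s2 per exonic kilobase was 1.20, 1.33 and 1.53 times Pnpla2 with GFP and 7.54, 7.61 and 7.99 times with ChREBP-beta. On this scale G0s2 thus exceeded Pnpla2 in all 6 libraries, with a 5.73-fold larger ratio with ChREBP-beta. The ratio of Hilpda to Pnpla2 was 2.54 ± 0.0306 with GFP and 3.74 ± 0.202 with ChREBP-beta (SD, n = 3). That of the activator Abhd5 was 2.22 ± 0.233 and 2.74 ± 0.267 (SD, n = 3), with the highest GFP library at 2.47 and the lowest ChREBP-beta library at 2.50. The ratio of Lipe to Pnpla2 was 0.368 ± 0.0327 and 0.646 ± 0.0293 (SD, n = 3), a 1.76-fold rise. The ratio of Mgll to Pnpla2 was 0.215 ± 0.067 and 0.111 ± 0.0235 (SD, n = 3). All 5 of these ratios separated the groups with p = 0.1, the smallest possible (exact permutation test, two-sided, adjusted over 7 ratios 0.1). They share Pnpla2, which was chosen because it was not called, so each largely restates the change of the other gene in it. The CPM of single genes kept the groups apart for 63.2% of all tested genes. The summed level of the 3 lipases per exonic kilobase was 4.76 to 5.63 with GFP and 4.89 to 5.62 with ChREBP-beta, and these ranges overlapped. Within that sum Lipe made up 23.2% ± 1.35 with GFP and 36.8% ± 0.704 with ChREBP-beta (SD, n = 3).

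**Figure D4:**
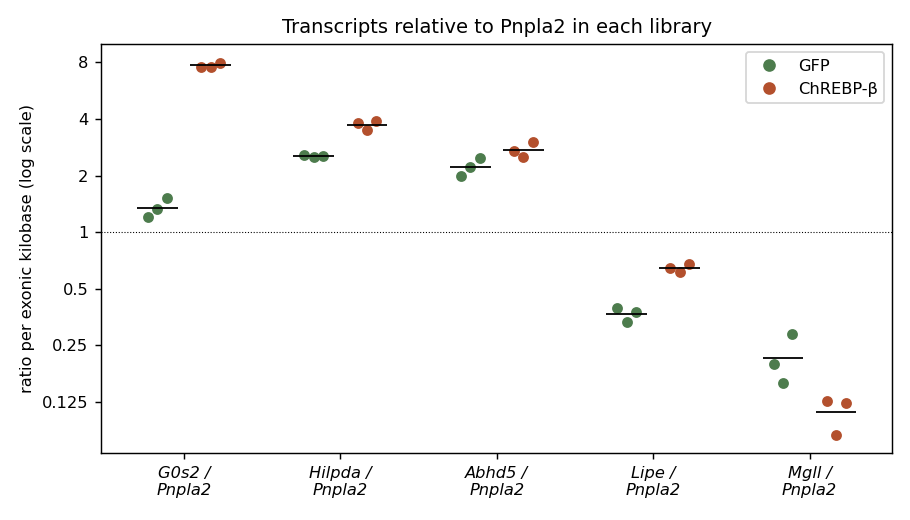
Counts per exonic kilobase of 5 genes divided by those of Pnpla2 in the same library, on a log scale; points are libraries and lines group means. G0s2 moves from 1.20 to 1.53 times Pnpla2 with GFP to between 7.54 and 7.99 times with ChREBP-beta.

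The order of the levels changed with these differences. With GFP the highest CPM per exonic kilobase was that of Plin2 (19.4 ± 1.01, SD, n = 3), followed by Plin3 (15.2 ± 0.627), Hilpda (8.12 ± 0.897), Plin4 (7.92 ± 0.162), Abhd5 (7.08 ± 0.00961), Fitm2 (5.57 ± 0.337), G0s2 (4.27 ± 0.0734), Pnpla2 (3.20 ± 0.338), Lipe (1.18 ± 0.188) and Mgll (0.675 ± 0.162). Hilpda and Plin4 differed by less than their spread. With ChREBP-beta, Plin2 was at 43.4 ± 0.944 and G0s2, at 23.1 ± 1.88, stood next to it. Hilpda (11.1 ± 0.516) and Plin3 (9.96 ± 0.678) followed, with overlapping libraries, then Abhd5 (8.16 ± 0.191) and Fitm2 (7.36 ± 0.331). Plin4 (3.12 ± 0.331) and Pnpla2 (2.99 ± 0.299) could not be told apart, and Lipe (1.92 ± 0.105) and Mgll (0.322 ± 0.0466) were again the lowest. By the longest coding transcript instead of merged exons Abhd5 stood at 13.4 per kilobase with GFP and Plin2 at 36.2, so ranks between genes with long alternative exons depend on the length used.

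Other genes of droplet coating and assembly moved in both directions. Of 14 tested, 4 were higher, 4 lower and 6 not called, with a median log2 fold change of 0.0053 against -0.004 over all tested genes, and none of the called ones changed 2-fold. Over all tested genes 29.5% were higher and 29.3% lower, so the numbers in this list are near the general rate. Aup1, which recruits ubiquitin ligation machinery to droplets, rose 1.20-fold, and the sorting nexin gene Snx14 1.19-fold (edgeR adjusted p = 1.30e-04 and 5.11e-04). Faf2 and Rab18, droplet-associated proteins, had log2 fold changes of 0.11 and 0.10 and were not called when scaled by upper quartile (edgeR adjusted p = 0.0619 and 0.0923) or library size (0.120 and 0.187), nor was Rab18 without ChREBP-beta replicate 3 (0.0626). Mettl7a1, a methyltransferase-like droplet protein, fell 1.98-fold from 9.34 to 4.71 CPM, Spg20 (spartin) 1.28-fold, the lipid transfer protein gene Vps13a 1.16-fold and the droplet dehydrogenase gene Hsd17b11 1.47-fold (edgeR adjusted p = 1.79e-06, 6.34e-08, 1.02e-04 and 0.00621). Bscl2, which encodes the droplet assembly protein seipin, stood at 1.16 and 1.39 CPM (edgeR adjusted p = 0.523). Cidec, Cidea, Pnpla3, Mettl7b and Hsd17b13, besides Plin1, Plin5 and Fitm1, had too few reads to be tested.

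Among other lipases, fatty acid carriers and genes that control lipolysis, 10 of 22 tested were higher, 8 lower and 4 not called (median log2 fold change 0.05). The shares over all tested genes were 29.5% higher and 29.3% lower. Under the alternative settings listed below, 8 or 9 were higher in place of 10, except with RLE scaling, which kept 10. The number lower was 8 or 9. Abhd6 and Abhd12, which like Mgll hydrolyse monoacylglycerol, fell 2.0-fold, with 9.37 ± 0.911 CPM (SD, n = 3) under GFP and 4.68 ± 0.234 CPM under ChREBP-beta, and 1.52-fold, with 45.9 ± 2.31 and 30.1 ± 1.42 CPM (edgeR adjusted p = 1.34e-06 and 6.71e-09). Ces1d, a carboxylesterase with triglyceride hydrolase activity, fell 4.63-fold from 7.42 to 1.59 CPM, while its neighbour in the same gene cluster, Ces1f, rose 2.18-fold from 6.94 to 15.1 CPM (edgeR adjusted p = 2.72e-09 and 7.72e-09). Close copies in that cluster make their split of reads less certain, although no deposited count of either was fractional. Ddhd2, a lipase that acts on triglyceride in neurons, rose 1.53-fold and Serpinf1, whose secreted product binds adipose triglyceride lipase, fell 1.24-fold (edgeR adjusted p = 1.51e-10 and 1.13e-09). Of the regulatory subunits of protein kinase A, the kinase that activates hormone-sensitive lipase, Prkar2a rose 1.74-fold, Prkar1a 1.15-fold and Prkar2b 1.10-fold (edgeR adjusted p = 3.54e-15, 4.59e-07 and 0.00105). Its catalytic subunit genes went both ways: Prkaca fell 1.14-fold and Prkacb rose 1.06-fold (edgeR adjusted p = 6.66e-06 and 0.0498). The Prkacb value lies just under the threshold of 0.05. Fabp4, a fatty acid carrier of adipocytes and blood vessel cells named here after its values were seen, rose 6.69-fold (edgeR adjusted p = 2.45e-06) from 0.157, 0.553 and 0.390 CPM to 2.83, 2.55 and 2.02 CPM, while the 5 endothelial markers, led by Cdh5 and Pecam1, summed to 0.732, 4.15 and 4.51 CPM with GFP and to between 2.54 and 5.63 CPM with ChREBP-beta. Their part in the Fabp4 result was not tested. The lysosomal lipase gene Lipa, the enzyme that digests droplets delivered by autophagy, rose 1.20-fold (edgeR adjusted p = 1.56e-05).

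In triglyceride and sterol ester synthesis 7 of 16 tested genes were higher, 4 lower and 5 not called (median log2 fold change 0.08). Of all tested genes, 29.5% were higher and 29.3% lower. With a minimum mean of 5 CPM, which tests fewer genes, 2 were lower. The acyltransferase genes Agpat3, Agpat5 and Gpat4 rose 1.31-fold, 1.28-fold and 1.20-fold and Lpin2, a phosphatidate phosphatase that makes diglyceride, 1.29-fold (edgeR adjusted p = 3.53e-09, 5.03e-06, 1.17e-06 and 3.65e-07). The 4 that fell acylate monoacylglycerol, diglyceride or cholesterol. Mogat2, which acylates monoacylglycerol, fell 3.26-fold from 2.24 to 0.686 CPM and Dgat2 1.78-fold from 2.61 to 1.46 CPM (edgeR adjusted p = 2.23e-04 and 0.0115). Dgat1 fell 1.20-fold and Soat1, which makes cholesteryl ester, 1.23-fold (edgeR adjusted p = 0.0165 and 4.67e-06). The deposited counts of Soat1 are not whole in 4 libraries. Dgat1 was not called without GFP replicate 3 (edgeR adjusted p = 0.0845), without ChREBP-beta replicate 1 (0.0788) or without ChREBP-beta replicate 2 (0.0610).

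Transcription factors known to act on droplet and lipase genes were also mixed, with 6 of 20 tested higher, Mlxipl among them, 7 lower and 7 not called. These numbers are near the shares over all tested genes, 29.5% higher and 29.3% lower. Without ChREBP-beta replicate 2, 4 were lower. Hif1a, the hypoxia factor known to induce Hilpda, rose 1.38-fold, from 369 ± 3.01 to 509 ± 10.7 CPM, and Ppard, a fatty acid receptor known to induce Plin2, 1.66-fold, from 33.1 ± 1.85 to 55.0 ± 1.61 CPM (SDs of 3 libraries; edgeR adjusted p = 2.78e-13 and 6.82e-11). Cebpb, an early factor of fat cell formation, rose 1.89-fold (edgeR adjusted p = 9.70e-14). Tfeb, a regulator of lysosomal genes, fell 2.50-fold, from 19.6 ± 1.87 to 7.83 ± 1.55 CPM (SD, n = 3), the ChREBP paralog gene Mlxip 1.30-fold and the glucocorticoid receptor gene Nr3c1 1.11-fold (edgeR adjusted p = 7.70e-10, 2.31e-05 and 1.26e-04). Mlx, the ChREBP partner, fell 1.19-fold and was not called without ChREBP-beta replicate 2 (edgeR adjusted p = 0.00503 and 0.0535). The deposited counts of Mlx are not whole in any of the 6 libraries. Pparg, which drives Plin1, Lipe and Pnpla2 in fat cells, had a log2 fold change of -0.22 (95% interval -0.47 to 0.04; edgeR adjusted p = 0.145). Ppara, Ppargc1a and Irf4 had too few reads to be tested.

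**Figure D5:**
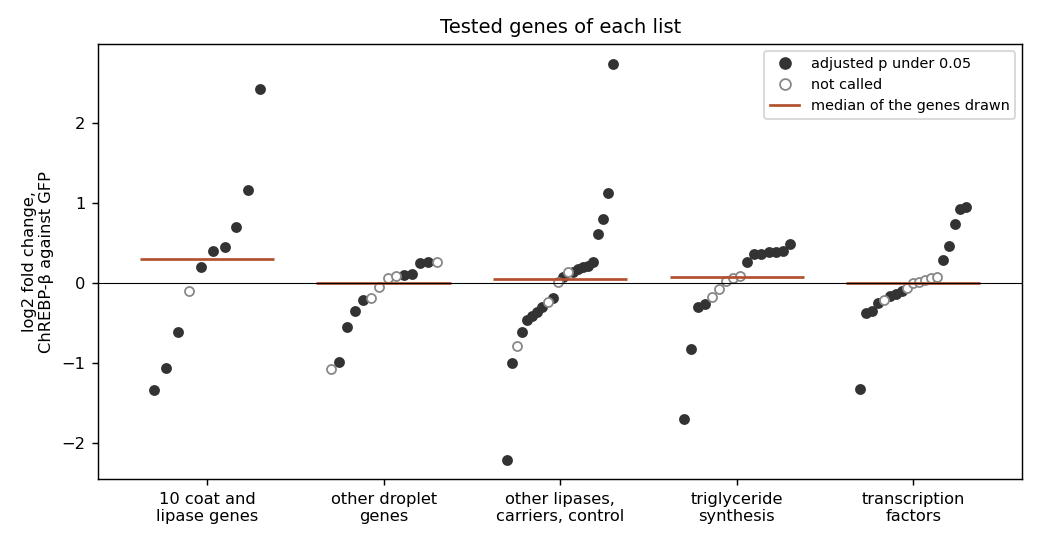
Log2 fold change, ChREBP-beta against GFP, of the tested genes in each list, sorted within the list; filled points passed the test and lines are medians of the genes drawn (Mlxipl, at 8.50, is left out of the transcription factors). The 10 coat and lipase genes run from -1.34 to 2.43, around a median of 0.30.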

How the data were processed

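The authors deposited estimated counts per gene symbol, 1 column per library, not normalized; 7.74% of the values are not whole, but no value of the 10 genes is fractional. The submitters' processing notes name TopHat2 2.0.0, Bowtie2 2.0.0.5, fastp and the chicken build GRCg6a; the sources used here do not give the mouse build, annotation, counting tool or strand setting. Groups and replicates follow the sample titles. Rows of the 24 repeated symbols were summed and counts rounded. Genes were filtered with filterByExpr (minimum count 10, total 15), scaled by TMM and tested with edgeR 4.0.16 (R 4.3.3; glmQLFit, glmQLFTest, no covariate), two-sided, adjusted over all 12166 genes; the same functions were tested on simulated data. SEs are the log2 fold change over the square root of F. The common biological coefficient of variation was 3.44%. Ratios within a library use counts plus 0.5 and exact permutation tests over samples. Intervals and counting errors do not cover PCR duplication. Chi-square per degree of freedom between libraries of a group was 2.15 to 3.93, highest between GFP replicates 1 and 3. No threshold was set for it, and all 6 libraries were kept. Locations and lengths are from GENCODE M21 (GRCm38), promoters from RefSeq, both matched by symbol; the authors' build may differ.

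The genes, lists and ratios were chosen with earlier results of these data known. Named are all 10 genes, Mlxipl, in each list up to 4 higher and 4 lower called genes by smallest adjusted p, the 2 most abundant of each marker list, and the 3 genes most like Plin2 and Plin4 in pattern (mean CPM of at least 10, Pearson correlation of log2 CPM). Other genes named, such as Lamb3, Fabp4 and Lipa, were picked after their values were seen. Alternatives were scaling by RLE, by upper quartile, by library size or by TMM without Mlxipl and the 10 most abundant genes, limma-voom (limma 3.58.1), DESeq2 1.42.0, no filter, a minimum mean of 5 CPM, a replicate block, and each library left out.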

Additional observations from a re-analysis of the deposited data

How the results depend on the processing

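Under the 15 alternative settings each of the 9 called genes that could be tested kept its direction and its call, and Pnpla2 was called in 0 of them (log2 fold change -0.18 to -0.02, adjusted p 0.281 to 0.914; its unadjusted p in the edgeR fit was 0.429). Mgll was left out by the 5 CPM filter on means, so 2 genes were lower there in place of 3. The numbers of the 10 genes called higher and lower stayed at 6 and 3 in all 6 fits that left out 1 library, while Mgll moved between -1.23 and -0.89. Scaling by library size or by upper quartile left 2 genes of droplet coating and assembly higher in place of 4, and the 5 CPM filter on means left 2 genes of triglyceride synthesis lower in place of 4, since it tests fewer genes. Without 1 library in turn, the transcription factors called lower numbered 4 to 6 in place of 7, the lowest without ChREBP-beta replicate 2. With the replicate number as a block, 3474 genes were higher and 3428 lower in place of 3584 and 3561, and the 10 genes again gave 6 and 3. Same-numbered libraries had correlations of their deviations of -0.0129, 0.0117 and -0.104, and no library correlated best with its own number. With 3 libraries per group, these values cannot tell whether same-numbered samples were prepared together. Of the list genes given with values, leaving aside Prkar2b, Prkaca and Prkacb, 9 results across settings lost their call and 526 kept their direction and their side of the threshold. Depth limits Mgll, whose smallest count was 26, and the droplet genes with too few reads to be tested.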

Other observations

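Among 8903 genes whose mean CPM was 10 or more, those most like Plin2 over the 6 samples by Pearson correlation of log2 CPM were Ctsl, a lysosomal protease gene (r = 0.9998, 1.43-fold higher), the ribosome assembly gene Wdr3 (0.9997, 1.42-fold higher) and the stress gene Gadd45b (0.9997, 1.99-fold higher). Those most like Plin4 were Creb3l1, a membrane-bound transcription factor gene of collagen-secreting cells (r = 0.9998, 1.97-fold lower), the sulfatase gene Arsj (0.9991, 1.57-fold lower) and the formin gene Fhod3 (0.999, 8.06-fold lower). These coefficients rest on 6 libraries in 2 groups and mostly restate the difference between the groups.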
